A study of Mus musculus with 2 samples.

Results

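The genes described here are 10 members of the NF-κB system, 4 that encode subunits and 6 that encode inhibitors or early feedback products, out of the 31053 genes counted. The subunits are Nfkb1, Nfkb2, Rel and Relb. The others are Nfkbia, Tnfaip3, Nfkbid, Nfkbiz, Bcl3 and Ier3. They were chosen by name, as the members of this system, and not by a threshold on their values. NF-κB subunits form dimers that are held in the cytoplasm by IκB proteins and enter the nucleus when a kinase complex marks the inhibitor for destruction, as happens downstream of antigen receptors and of tumour necrosis factor family receptors. The dimers then turn on genes that include their own inhibitors, so the mRNA of these inhibitors is a common readout of recent signaling. A second, slower arm uses Nfkb2 and Relb and follows receptors such as 4-1BB, the product of Tnfrsf9.

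The study asked what the epidermal protein Skint1 does for dendritic epidermal T cells (DETCs), the γδ T cells of mouse epidermis. Sorted cells, live and CD45+EpCAM-MHC-II-, came from the trypsin-digested ear epidermis of WT female FVB/NJ mice of 8 weeks, 7 d after they had received isotype control or Skint1 antibody by intradermal injection, and 1 single-cell library was made for each of the 2 treatments. Each library is taken to come from 1 mouse, since n = 1 per group and n stood for individual mice. The isotype control library held 27272211 unique molecular identifiers (UMIs, each marking 1 captured mRNA molecule) and the Skint1 antibody library 32450957. With 1 library per treatment, treatment and library cannot be told apart, no test between treatments was possible and no p-value is given.

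A barcode counted as a cell if it held between 500 and 2500 genes and no more than 12% of its UMIs were mitochondrial, which left 4242 and 5961 cells in the isotype control and Skint1 antibody libraries. Only 5 cell barcodes occurred in both. DETCs were cells with at least 3 Trdc UMIs, at least 3 UMIs of the CD3 genes and none of Trac, Cd4, Cd8a or Cd8b1, and they numbered 3544 and 4945. Cells with a Trac UMI and no Trdv4 UMI were taken as αβ T cells, 197 and 213 in number. Another class of 82 and 139 cells had at least 3 UMIs of Il7r, Rora and Gata3, at most 2 CD3 UMIs and no Trdv4 UMI.

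Marker lists were then read in each class. Trdv4, the variable segment of the DETC receptor, had a UMI in 88.4% and 83.8% of DETCs. The αβ T cell surface genes Cd5, Cd6 and Cd28 lay between 81.3 and 171 counts per 1000000 UMIs of the class (CPM) in αβ T cells and at or below 2.73 CPM in DETCs. The receptor constant genes Trbc1 and Trbc2 did not separate the classes, at 1115 and 1215 CPM in αβ T cells and 1491 and 1097 CPM in DETCs of the isotype control library, and they brought the sum of the 9 αβ T markers to 2947 against 2603 CPM there and 2629 against 2245 CPM in the other. That sum includes Cd4 and Cd8a, which the DETC rule sets to 0 in DETCs. Of the αβ T cells, 18 and 44 also carried 3 or more Trdc UMIs. Their class held 236 and 220 CPM of 6 dermal γδ T cell genes, against 40.5 and 40.8 CPM in DETCs. Of the 6, Il17a stood at 64.9 and 126 CPM against 11.0 and 6.31, and Cd163l1 at 21.2 and 15.5 against 21.2 and 28.7. The 8 DETC markers summed to 15917 and 14971 CPM in DETCs and 3394 and 4456 CPM in αβ T cells. The αβ T rule sets Trdv4, 1 of them, to 0. Itgae did not separate the classes, at 572 and 579 CPM in DETCs and 554 and 525 CPM in the last class. The last class bore out its intended label of innate lymphoid cells in part. Of the 9 markers of that label, Icos stood at 172 and 167 CPM against 12.1 and 7.59 CPM in DETCs, and Kit, Il2ra and Id2 were also above DETCs in both libraries. They did not all mark the class among the 3, as αβ T cells held more Icos, at 348 and 204 CPM, more Id2, at 822 and 849 CPM, and more of the summed list, at 1541 and 1486 CPM against 1167 and 1242 CPM. Areg was lower than in DETCs, Klrg1 and Arg1 were at 0 in both libraries, and Il1rl1 and Ncr1 had 0 UMIs in the isotype control library and 3 and 1 in the other. It also held 483 and 3852 CPM of 5 keratin genes and 1055 and 1624 CPM of 6 Langerhans or myeloid genes, against at most 28.4 and 10.4 CPM in DETCs. Cells with 5 or more keratin UMIs numbered 1 and 10, and those with 5 or more myeloid UMIs 11 and 13. The 61 and 103 cells outside both sets and without a Trac UMI kept Icos at 166 and 193 CPM and Kit at 107 and 122 CPM. It is therefore called CD3-low cells here, and ratios of DETCs over it are also given for those 61 and 103 cells, an alternative added after seeing the data.

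Levels are UMIs summed over a class and library, in CPM, and ratios are log2 ratios of CPM with no pseudocount. A level carries its exact Poisson 95% interval in parentheses, a ratio its exact conditional binomial interval, and a share of cells its exact Clopper-Pearson interval. All of these cover counting error only. A member counted as higher or lower at a log2 ratio of 0.32 or more between libraries and at 1.5-fold between cells of the same library, and it had to average at least 20 CPM over the 2 groups. Of the 10 members, 9 passed that floor in these comparisons, except between the libraries within the low and the middle immediate early bin, where 8 did, Nfkbiz being under it in the low bin and Nfkb2 in the middle bin. Bcl3 was under it throughout, with 10.8 and 13.6 CPM in DETCs. Because 3′ counting gives 1 UMI per molecule whatever the transcript length, levels of different genes are molecule counts, though genes may differ in capture.

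The promoters of the members are shown because the results below separate members by how far they vary together, and the letters recognised by NF-κB can be read directly. RefSeq promoter sequences of 300 bases, from 250 before to 50 after a transcription start on GRCm38.p6, matched 7 of the 10 members through 12 starts. Nfkbiz, Nfkb1 and Relb had no entry. Both strands were searched for 3 forms, which are GGGNNTTCC, the same letters with 1 more T after the NN, and the κB consensus. The forms overlap, so 1 stretch can match more than 1 of them. At least 1 form was found in 9 of the 12 member promoters and in at least 1 promoter of each of the 7 members. Over the whole table of 32851 promoters, 5.82% held GGGNNTTCC, 1.63% held the form with the added T, 4.51% held the κB consensus and 9.51% held any of the 3. Counted by gene, 2899 of 27025 genes (10.7%) had any of the 3 in at least 1 promoter. A match is a description of letters, not of binding. In the sequences below, 5′ to 3′ on the strand of the gene, capitals mark every stretch that matched. Nfkbia, Tnfaip3, Rel and Ier3 differed by 1.5-fold with immediate early genes in DETCs and Nfkb2 did not reach that limit, as described further on. The regions are chr12:55492598-55492897 on the minus strand for Nfkbia, chr10:19015361-19015660 on the minus strand for Tnfaip3, chr11:23770920-23771219 on the minus strand for Rel, chr17:35821463-35821762 on the plus strand for Ier3 and chr19:46304487-46304786 on the plus strand for Nfkb2.
Nfkbia: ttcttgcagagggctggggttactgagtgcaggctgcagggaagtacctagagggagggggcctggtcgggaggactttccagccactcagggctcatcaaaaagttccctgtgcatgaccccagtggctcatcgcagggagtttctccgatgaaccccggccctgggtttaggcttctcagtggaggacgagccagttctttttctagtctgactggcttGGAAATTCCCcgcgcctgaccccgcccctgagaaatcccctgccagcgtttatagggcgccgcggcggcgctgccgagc
Tnfaip3: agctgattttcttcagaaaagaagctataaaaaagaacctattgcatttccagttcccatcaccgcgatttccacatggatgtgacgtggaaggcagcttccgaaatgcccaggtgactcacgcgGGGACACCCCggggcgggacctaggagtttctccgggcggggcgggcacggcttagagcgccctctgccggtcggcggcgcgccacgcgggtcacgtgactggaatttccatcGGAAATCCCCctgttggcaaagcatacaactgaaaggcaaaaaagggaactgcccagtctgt
Rel: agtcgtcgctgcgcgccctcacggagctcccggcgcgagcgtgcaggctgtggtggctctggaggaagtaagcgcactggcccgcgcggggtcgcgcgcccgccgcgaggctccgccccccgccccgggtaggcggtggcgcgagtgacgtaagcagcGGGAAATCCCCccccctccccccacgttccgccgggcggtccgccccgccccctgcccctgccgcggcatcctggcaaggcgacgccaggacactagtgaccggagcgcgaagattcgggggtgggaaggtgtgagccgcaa
Ier3: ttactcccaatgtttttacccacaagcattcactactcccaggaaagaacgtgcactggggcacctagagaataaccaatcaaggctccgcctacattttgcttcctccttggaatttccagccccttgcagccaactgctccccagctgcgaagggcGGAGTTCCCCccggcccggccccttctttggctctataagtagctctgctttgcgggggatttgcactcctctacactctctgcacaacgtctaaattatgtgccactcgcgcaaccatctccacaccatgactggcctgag
Nfkb2: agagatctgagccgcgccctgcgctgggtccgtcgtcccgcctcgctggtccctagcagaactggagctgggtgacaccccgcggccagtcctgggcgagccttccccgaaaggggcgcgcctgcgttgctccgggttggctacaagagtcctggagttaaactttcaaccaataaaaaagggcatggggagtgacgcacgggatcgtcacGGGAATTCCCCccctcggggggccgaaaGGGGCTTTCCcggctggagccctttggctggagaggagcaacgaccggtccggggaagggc

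κB letters thus lay close to a start in all 5, on either side of that limit. In Nfkbia a stretch began 29 bases before the start, in Tnfaip3 at 125 and 12 bases, in Rel at 92 bases, in Ier3 at 92 bases, and in Nfkb2 at 39 and 11 bases. Of these 5 promoters, that of Ier3 matched the κB consensus alone. The genes themselves span chr12:55489410-55492647 (Nfkbia), chr10:19000910-19015657 (Tnfaip3), chr11:23736847-23770970 (Rel), chr17:35821684-35822923 (Ier3) and chr19:46304320-46312385 (Nfkb2) in GENCODE vM21 on GRCm38.

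DETCs carried mRNA of all 10 members. Nfkbia, which encodes the classical cytoplasmic inhibitor IκBα, was the most abundant of the 10 in each class and library. It stood at 1253 CPM (1234 to 1271) in isotype control DETCs and 1214 CPM (1198 to 1230) in Skint1 antibody DETCs. Tnfaip3, which encodes a ubiquitin-editing enzyme that shuts off signaling to NF-κB, followed at 312 CPM (303 to 321) and 272 CPM (264 to 279). Ier3, an immediate early response gene linked to cell survival, was at 227 CPM (219 to 234) and 260 CPM (253 to 268). These 3 were the highest members in DETCs of both libraries. Their intervals are separate in the isotype control library, while those of Tnfaip3 and Ier3 overlap in the other.

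Among the subunits, Nfkb1, which encodes a precursor of the classical dimers, stood at 160 CPM (154 to 167) and 135 CPM (130 to 140) in DETCs. Rel, which encodes the lymphoid subunit c-Rel, stood at 134 CPM (128 to 140) and 103 CPM (98.4 to 108). The subunits of the slower arm were lower, with Relb at 64.7 CPM (60.6 to 68.9) and 73.8 CPM (69.9 to 77.8). Nfkb2 was at 21.5 CPM (19.2 to 24.0) and 21.1 CPM (19.0 to 23.2). The atypical IκB genes, whose products act in the nucleus, were at 77.1 CPM (72.7 to 81.8) and 67.7 CPM (64.0 to 71.5) for Nfkbid and at 29.5 CPM (26.8 to 32.5) and 28.7 CPM (26.3 to 31.2) for Nfkbiz. In DETCs the order of levels was thus Nfkbia, Tnfaip3, Ier3, Nfkb1, Rel, Nfkbid, Relb, Nfkbiz, Nfkb2 and Bcl3 in the isotype control library. In the Skint1 antibody library it was the same but for Relb and Nfkbid, which changed places and whose intervals overlap there.

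**Figure D1:**
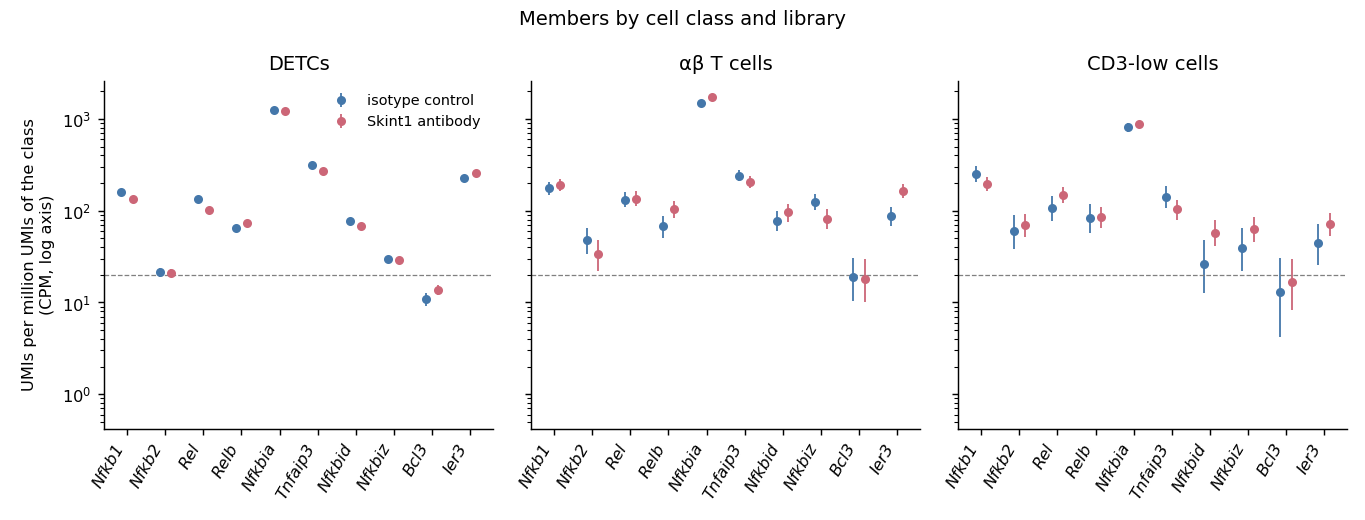
Level of each member in CPM, on a log axis, in DETCs, αβ T cells and CD3-low cells of the isotype control and Skint1 antibody libraries; bars are exact Poisson 95% intervals and the dashed line is the floor of 20 CPM. Nfkbia is highest in every panel, at 807 to 1742 CPM, and Bcl3 lies under the floor in every panel.

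The members were unevenly spread over single DETCs. With each cell thinned to 2000 UMIs, which left out 134 and 202 shallower DETCs, an Nfkbia UMI was seen in 66.8% (65.2 to 68.4) and 65.1% (63.7 to 66.4) of DETCs. A Tnfaip3 UMI was seen in 39.5% and 35.7% of DETCs, and an Ier3 UMI in 21.7% and 24.4%. Without thinning the shares were 76.6% and 74.1% for Nfkbia, 54.9% and 48.7% for Tnfaip3 and 32.4% and 33.4% for Ier3. The variance of Nfkbia over its mean across thinned DETCs was 3.81 and 4.21, that of Ier3 was 3.12 and 3.33, and those of the other 8 members lay between 1.02 and 1.57. A ratio of 1 is what random sampling of molecules alone gives. The ratio can also rise with the mean, so it does not rank the members by unevenness. That mean was 2.44 and 2.45 UMIs per thinned DETC for Nfkbia and at most 0.64 for any other member. A single DETC held up to 54 and 60 Nfkbia UMIs before thinning, and 13.3% and 14.0% of thinned DETCs had no UMI of any member. Free RNA, read from barcodes with 1 to 100 UMIs and scaled by keratin genes, would account for at most 2.41% of the UMIs of any member in DETCs and at most 5.49%, for Ier3, in αβ T cells. In CD3-low cells the same scaling gave 51.6% and 289.8% of all UMIs of the class, which is no usable share, so no background share stands behind the levels of that class.

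The members' levels differed between DETCs with few and with many UMIs of immediate early genes, which cells turn on within minutes of a stimulus. Thinned DETCs were split into 3 bins of similar size by their summed UMIs of Fos, Fosb, Jun, Junb, Egr1, Atf3, Dusp1 and Nr4a1, a list that holds no member and that was also chosen with these data known. The limits were 7 and 20 UMIs per cell for both libraries together, and 484 of 3410 and 668 of 4743 cells lay within 1 UMI of a limit. From the low to the high bin, 7 of the 9 members above the floor were higher by 1.5-fold in both libraries, against 7.85% of all genes, and 0 were lower, against 4.02%. The median log2 ratio of the 9 was 1.65 in the isotype control library and 1.76 in the Skint1 antibody library, where the median over all genes was -0.20 and -0.18. The 7 comprised Nfkb1 and Rel among the subunits, the inhibitor genes Nfkbia, Tnfaip3, Nfkbid and Nfkbiz, and Ier3.

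Nfkbia went from 425 to 1336 to 1923 CPM over the bins of isotype control DETCs, and from 346 to 1352 to 2119 CPM in Skint1 antibody DETCs. Its log2 ratios of high over low were 2.18 (2.08 to 2.28) and 2.61 (2.53 to 2.70). Tnfaip3 went from 99.6 to 347 to 524 CPM and from 89.8 to 307 to 473 CPM, with ratios of 2.40 (2.19 to 2.61) and 2.40 (2.22 to 2.58). For these inhibitor genes and for Ier3 the intervals of the 3 bins were separate in both libraries.

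Ier3 went from 88.8 to 252 to 321 CPM and from 108 to 292 to 407 CPM, with log2 ratios of 1.85 (1.63 to 2.08) and 1.92 (1.75 to 2.09). Among the nuclear IκB genes, Nfkbid had ratios of 1.33 (1.00 to 1.68) and 1.76 (1.44 to 2.08). Nfkbiz had ratios of 1.65 (1.06 to 2.27) and 2.48 (1.93 to 3.07). Rel and Nfkb1, which encode subunits of the classical arm, had ratios of 1.74 and 1.44 for Rel and 1.00 and 1.12 for Nfkb1.

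The genes of the slower arm did not reach 1.5-fold. Relb was at 70.3, 70.4 and 58.9 CPM over the bins of isotype control DETCs and at 77.6, 71.9 and 75.6 CPM in the other library, with ratios of -0.25 (-0.60 to 0.09) and -0.04 (-0.30 to 0.22). Nfkb2 had a ratio of 0.31 in both libraries, with intervals from -0.28 to 0.91 and from -0.18 to 0.79, the first of which overlaps that of Nfkb1. With at most 5% mitochondrial UMIs it was 0.24 and 0.93, so that Nfkb2 passed 1.5-fold in 1 library. Bcl3, under the floor, had ratios of -0.59 (-1.53 to 0.32) and 0.00 (-0.62 to 0.61). The interval of Relb lay below that of Nfkb1, the lowest of the 7, in each library.

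Heat shock genes moved with the split as well. The summed level of 9 of them went from 5291 to 10250 to 12296 CPM over the bins of isotype control DETCs and from 4637 to 7913 to 9580 CPM in the other library. Median depth was 4047, 4153 and 4018 UMIs from low to high in isotype control DETCs and 3734, 3654 and 3489 UMIs in Skint1 antibody DETCs, with mitochondrial medians between 5.31% and 5.67% in all bins. The part of the stress genes in the members' levels was not tested beyond leaving out DETCs with many heat shock UMIs, which still gave 7 members higher and 0 lower. It raised the isotype control ratios of Nfkbiz from 1.65 to 2.70 and of Nfkbid from 1.33 to 1.98. The 1.65 of Nfkbiz lay below its value under each of the 5 alternatives run, 1.91 to 2.70.

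**Figure D2:**
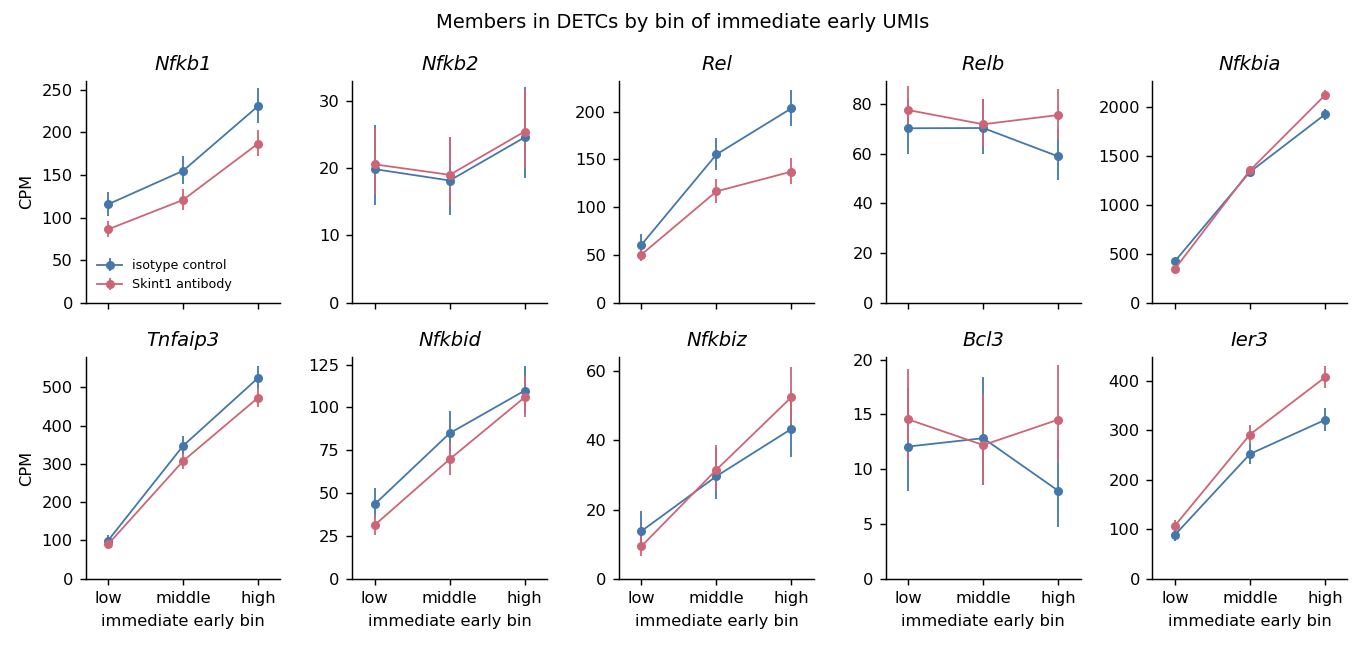
Level of each member in CPM in DETCs thinned to 2000 UMIs, in the low, middle and high bin of immediate early UMIs, for the isotype control and Skint1 antibody libraries; bars are exact Poisson 95% intervals and each axis starts at 0. The lines climb for Nfkb1, Rel, Nfkbia, Tnfaip3, Nfkbid, Nfkbiz and Ier3, and the intervals of Nfkb2, Relb and Bcl3 overlap between bins.

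Other genes of the pathway were read over the same bins. Of the textbook target genes of NF-κB, 5 of the 10 above the floor were higher by 1.5-fold in both libraries, namely Tnf, Icam1, Gadd45b, Irf1 and Il2, and Ltb was lower. Gadd45b, a stress response gene, had log2 ratios of 2.19 and 2.05 and Ltb, which encodes lymphotoxin beta, -0.79 and -0.63. In the TNF receptor and non-canonical arm 4 of 10 were higher, Birc2, Birc3, Tnfrsf1b and Tnfrsf18, of which Tnfrsf1b had ratios of 1.13 and 1.24. In the antigen receptor arm 2 of 8 were higher, Malt1 at 1.09 and 1.16 and Zc3h12a, which encodes an mRNA-degrading enzyme, at 1.94 and 2.08. Of the core and kinase genes 1 of 6 was higher, Nfkbie, another cytoplasmic IκB gene, at 1.48 and 1.53. Of the ubiquitin chain makers and editors 0 of 8 were higher and Rbck1 was lower, at -0.66 and -0.80. The list medians were 0.92 and 0.62 for the targets and 0.55 and 0.62 for the TNF receptor arm. They were -0.12 and 0.10 for the antigen receptor arm, -0.13 and 0.02 for the core and kinase genes and -0.22 and -0.11 for the ubiquitin genes, beside -0.20 and -0.18 for all genes, of which 7.85% were higher and 4.02% lower.

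Across single DETCs the gene most like the summed members was Fos, with a Pearson correlation of log values of 0.50 over 3410 isotype control cells and 0.54 over 4743 Skint1 antibody cells. The next were Rgs2, Junb, Hist1h2bc and Dusp1 in the first library, at 0.40 to 0.44, and Junb, Dusp1, Btg2 and Hist1h2bc in the second, at 0.45 to 0.46. The median gene of 2871 and 2811 ranked stood at -0.02 in both. Against the sum of the other 9 members, Nfkbia reached 0.37 and 0.38, Tnfaip3 0.31 and 0.29, and Relb 0.02 in both. Over the 45 pairs of members the highest value was that of Nfkbia with Tnfaip3, 0.28 and 0.29, and the median was 0.03 in each library. These cells share a library and sparse counts, so the values are given as a description.

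The 4-1BB gene Tnfrsf9 marked a second and smaller split. A Tnfrsf9 UMI was present in 536 thinned isotype control DETCs (15.7%) and 481 Skint1 antibody DETCs (10.1%). Of the 9 members, 1 was higher by 1.5-fold in cells with the UMI in both libraries, against 0.209% of all genes, and 0 were lower, against 0.133%. It was Nfkb2, at 30.8 against 19.0 CPM in the isotype control library and 33.3 against 20.3 CPM in the Skint1 antibody library. Its ratios of 0.70 (0.09 to 1.27) and 0.71 (0.12 to 1.26) have wide intervals. Relb, the partner subunit of the slower arm, had ratios of 0.52 (0.18 to 0.85) and 0.24 (-0.10 to 0.57), and Nfkbia 0.30 and 0.19. Genes outside the slower arm had ratios of like size, Rel 0.26 (0.01 to 0.50) and 0.41 (0.12 to 0.68), Ier3 0.45 and 0.16 and Nfkb1 0.35 and 0.04. In all, 8 of 9 members lay above 0 in the isotype control library and 9 of 9 in the other. Their median was 0.35 and 0.18, beside -0.002 and 0.003 for all genes, whose share above 0 was not counted. Of the TNF receptor and non-canonical arm, which holds Tnfrsf9, 8 of 10 lay above 0 in each library. Of the ubiquitin genes it was 5 of 8 and 4 of 8. The immediate early list was close between these cells, at 8093 and 8111 CPM in the isotype control library and 8385 and 7981 CPM in the other.

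Next, DETCs were compared with αβ T cells of the same library, so that the 2 libraries give a value each. Ier3 was higher in DETCs in both libraries, 1 of 9 members against 15.8% of all genes, and Nfkbiz and Nfkb2 were lower in both, 2 of 9 against 7.56%. Nfkbiz, whose product drives a subset of secondary response genes, stood at 125 CPM (102 to 152) in isotype control αβ T cells and 81.3 CPM (63.1 to 103) in Skint1 antibody αβ T cells, above the 29.5 and 28.7 CPM of DETCs. Its log2 ratios of DETCs over αβ T cells were -2.08 (-2.40 to -1.75) and -1.50 (-1.87 to -1.12).

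Nfkb2 stood at 47.5 CPM (33.6 to 65.1) and 33.5 CPM (22.2 to 48.4) in αβ T cells, with ratios of -1.14 (-1.63 to -0.62) and -0.67 (-1.22 to -0.06). Ier3 stood at 87.4 CPM (68.1 to 110) and 164 CPM (138 to 194) in αβ T cells, with ratios of 1.37 (1.03 to 1.74) and 0.67 (0.42 to 0.92). In αβ T cells 10 cells held 71.4% and 65.7% of the Ier3 UMIs. Without the αβ T cells that carried 3 or more Trdc UMIs, the Ier3 ratios were 1.90 and 2.10.

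Without the 10 cells richest in the gene in each class, the Nfkb2 ratios were -0.51 and -0.02 and those of Ier3 3.01 and 2.06. An Nfkb2 UMI was present in 15.7% and 12.2% of αβ T cells, with at most 4 and 2 in a cell. The 10 richest held 44.7% and 42.9% of its UMIs there, against 7.94% and 5.84% in DETCs. As leaving them out takes a larger share of the smaller class, it cannot show whether few cells decided the Nfkb2 level.

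Below 1.5-fold, Tnfaip3 was higher in DETCs by 0.37 (0.17 to 0.59) and 0.41 (0.19 to 0.64) and Nfkbia was lower, at -0.25 (-0.33 to -0.16) and -0.52 (-0.60 to -0.44). Rel, Relb, Nfkb1 and Nfkbid had intervals that include 0 in the isotype control library and values from -0.51 to -0.39 in the Skint1 antibody library. Scaled to the median gene, or to a total without mitochondrial and ribosomal protein UMIs, 0 members were higher and 2 lower. The Ier3 ratio of the Skint1 antibody library was also under 1.5-fold with at most 5% mitochondrial UMIs (0.46) and without cells that met both the αβ T and CD3-low rules (0.57).

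Immediate early and heat shock genes differed between these classes too. The immediate early list summed to 7958 CPM in DETCs and 4100 CPM in αβ T cells of the isotype control library, and to 7751 and 5324 CPM in the Skint1 antibody library. Heat shock genes stood at 9196 against 3876 CPM and at 7162 against 4102 CPM. Within immediate early bins the Nfkbiz ratio was -2.56, -2.44 and -2.03 in the low, middle and high bin of the isotype control library and -2.73, -1.88 and -0.30 in those of the other library, the last on 4 αβ T cell UMIs. Nfkbia was further below αβ T cells in the low bin, with ratios of -1.45 (-1.65 to -1.25) and -1.58 (-1.80 to -1.36), than in the high bin, with -0.22 (-0.54 to 0.13) and -0.43 (-0.65 to -0.21). Ier3 had ratios of 0.68, 1.82 and -0.25 over the bins of the isotype control library and 0.78, 1.16 and 0.20 over those of the other, and the intervals in the high bin, where 17 and 31 αβ T cells remained, ran from -1.04 to 0.66 and from -0.41 to 0.88. Tnfaip3, which stood above αβ T cells over all cells, had ratios of -0.82 (-1.30 to -0.30) and -0.35 (-0.97 to 0.34) in the low bin. It had 0.15 (-0.34 to 0.68) and 0.24 (-0.24 to 0.76) in the middle bin. In the high bin it had 0.16 (-0.55 to 0.97) and 0.41 (-0.19 to 1.09).

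**Figure D3:**
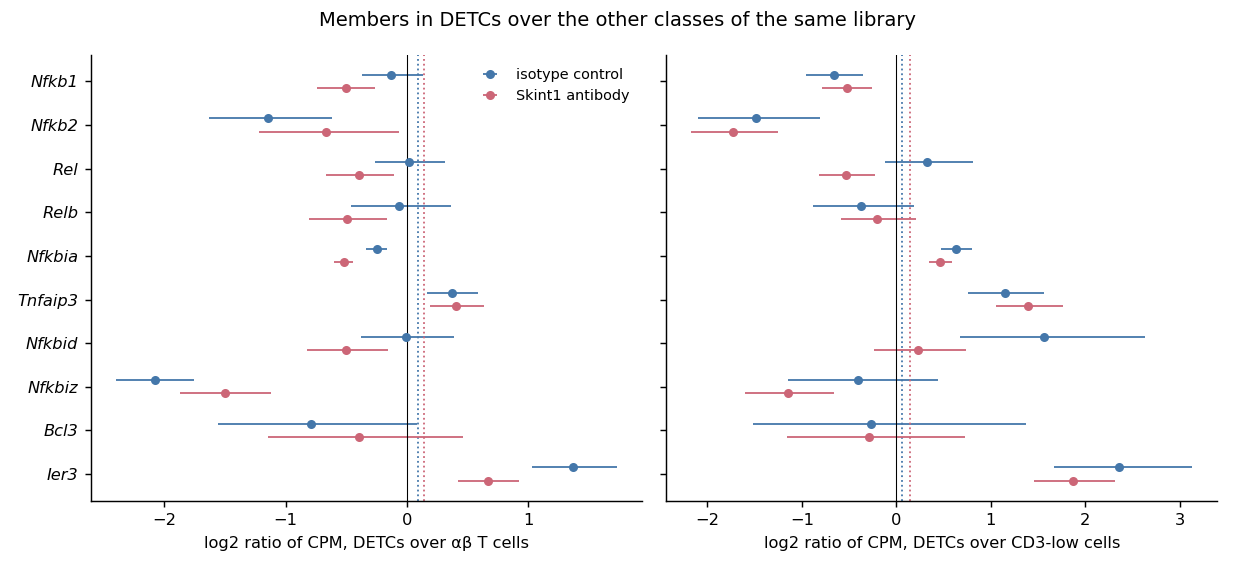
Log2 ratio of CPM of each member in DETCs over αβ T cells (left) and over CD3-low cells (right), in the isotype control and Skint1 antibody libraries; bars are exact conditional binomial 95% intervals and dotted lines are the medians over all genes. Nfkbiz and Nfkb2 lie left of 0 against αβ T cells in both libraries, at -2.08 to -0.67, and Ier3 lies right of 0, at 0.67 to 1.37.

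Over the lists of other pathway genes, the textbook targets were the most one-sided. Of 17, 13 were above the floor, of which 9 were lower in DETCs by 1.5-fold in both libraries and 0 were higher. The 9 were Tnf, Lta, Ltb, Icam1, Cd83, Gadd45b, Bcl2l1, Bcl2a1b and Csf2. Bcl2a1b, a survival gene, had log2 ratios of -3.82 and -4.48 and Csf2, which encodes the cytokine GM-CSF, -2.47 and -3.17. The list's median was -0.77 and -1.12, beside 0.10 and 0.14 for all genes. In the antigen receptor arm Bcl10, an adaptor that links antigen receptors to the kinase complex, was higher in DETCs, at 303 against 121 CPM and 303 against 134 CPM, which is a ratio of 1.32 and 1.18.

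In the TNF receptor and non-canonical arm, 1 of 11 was higher, Birc2 at 1.23 and 1.16, and 3 were lower, Traf1, Birc3 and the OX40 gene Tnfrsf4. Tnfrsf4 was at 1.16 and 1.71 CPM in DETCs and 255 and 160 CPM in αβ T cells. The deubiquitinase gene Cyld, 1 of 8 ubiquitin genes, was lower in DETCs at -1.36 and -1.33, and 0 of 7 core and kinase genes passed in either direction. The medians were 0.45 and 0.26 for the antigen receptor arm, -0.21 and -0.24 for the TNF receptor arm, 0.23 in both libraries for the ubiquitin genes and 0.04 and 0.10 for the core and kinase genes, beside 0.10 and 0.14 for all genes, of which 15.8% were higher and 7.56% lower.

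**Figure D4:**
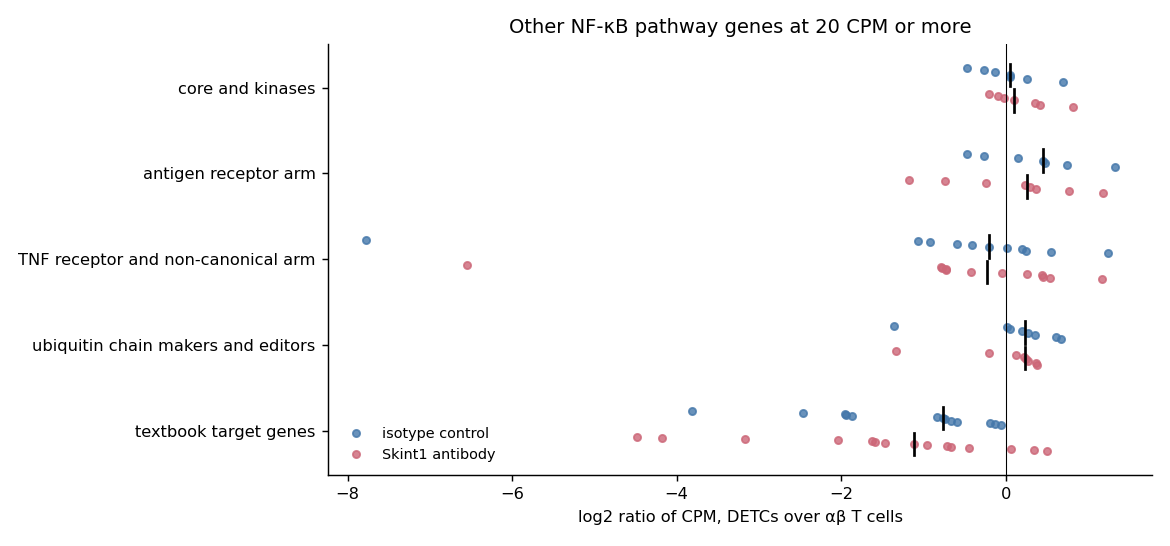
Log2 ratio of CPM in DETCs over αβ T cells for the other pathway genes above the floor, by list and library; each point is 1 gene and the black bars are list medians. The textbook targets lie mostly left of 0, with medians of -0.77 and -1.12, and the lone point at the far left of the TNF receptor arm in each library is Tnfrsf4.

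Against CD3-low cells, Tnfaip3 and Ier3 were higher in DETCs in both libraries, 2 of 9 against 19.4% of all genes, and Nfkb2 was lower, 1 of 9 against 9.48%. Tnfaip3 stood at 141 CPM (106 to 184) and 103 CPM (80.1 to 131) in CD3-low cells, with ratios of 1.15 (0.76 to 1.56) and 1.40 (1.05 to 1.76). Nfkb2 stood at 60.1 CPM (38.1 to 90.1) and 69.8 CPM (51.1 to 93.0), with ratios of -1.48 (-2.09 to -0.80) and -1.73 (-2.17 to -1.25). With the 10 cells of each class richest in Nfkb2 left out its ratios were -0.46 and -0.64, and with no upper limit on genes per cell -0.18 and -0.08. In the 61 and 103 CD3-low cells outside the keratin and myeloid sets and without a Trac UMI they were -1.37 and -1.88, and those of Tnfaip3 1.11 and 1.44. Centred on the median gene 2 members were higher and 2 lower, and with a total without mitochondrial and ribosomal protein UMIs 2 and 3. The immediate early list stood at 7958 CPM in DETCs and 2366 CPM in CD3-low cells of the isotype control library and at 7751 and 3545 CPM in the other, and the heat shock list at 9196 against 2672 CPM and 7162 against 3150 CPM. The part of these genes in the ratios was not tested.

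Against the same 61 and 103 cells, 3 of 9 members were higher in DETCs, against 19.1% of all genes, and 2 lower, against 9.9%. Nfkbia joined the higher members, at 644 and 785 CPM in those cells, with ratios of 0.96 (0.75 to 1.18) and 0.63 (0.48 to 0.78) in place of 0.63 and 0.46. Nfkb1 joined the lower ones, with -0.87 (-1.19 to -0.53) and -0.64 (-0.94 to -0.33) in place of -0.66 and -0.53. Rel had ratios of opposite sign in the libraries, 0.79 (0.17 to 1.48) and -0.44 (-0.80 to -0.05). Nfkbiz had 0.41 (-0.72 to 1.87) in the isotype control library, where it was -0.41 (-1.15 to 0.44) in the whole class, and -1.16 in the other.

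Ier3 stood at 44.4 CPM (25.9 to 71.1) and 71.3 CPM (52.4 to 94.8) in CD3-low cells, with ratios of 2.35 (1.67 to 3.13) and 1.87 (1.46 to 2.32). A thinned CD3-low cell had an Ier3 UMI in 1.30% and 3.68% of cases, against 21.7% and 24.4% of DETCs at the same depth, and in 1.22% and 7.91% without thinning. All 17 of its UMIs in the isotype control library lay in 1 cell, and 34 of the 47 in the other library lay in 1 cell. Cells with 5 or more UMIs of the keratin list or of the myeloid list held all 17 and 40 of the 47. The 61 and 103 CD3-low cells outside these, and without a Trac UMI, held 0 and 6 Ier3 UMIs. Set against the floor of 3 counts for a count of 0, Ier3 was 20.4-fold higher in isotype control DETCs, and the exact interval of that ratio starts at 16.6-fold. Against the 6 UMIs of the Skint1 antibody library it was 19.6-fold higher (8.98 to 53.3). With at most 5% mitochondrial UMIs, where 16 and 20 CD3-low cells remained, the ratios were 0.15 and -0.48.

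αβ T cells also stood above CD3-low cells for Nfkbia, Nfkbid, Tnfaip3 and Ier3 in both libraries, 4 of 9 against 6.52% of all genes, and 0 of 9 were lower, against 4.04%. Against the 61 and 103 cells the same 4 were higher, against 6.91% of all genes, and 0 lower, against 5.1%. Nfkbia, at 807 and 879 CPM in CD3-low cells, thus had its lowest level there, and the order of αβ T cells, DETCs and CD3-low cells held with separate intervals in both libraries. With at most 5% mitochondrial UMIs that order was lost, as the Nfkbia ratio of DETCs over αβ T cells was 0.019 in the isotype control library and that over CD3-low cells -0.090 in the other. For Nfkb2 the lowest level was that of DETCs, whose interval touched that of αβ T cells in the Skint1 antibody library, and its intervals in αβ T and CD3-low cells overlap in the isotype control library.

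Finally, DETCs were compared between the libraries. Differences were smaller than those over the immediate early bins for each of the 7 members named there. Of 9 members, Rel was lower by 0.32 or more in log2 ratio in the Skint1 antibody library, 1 against 1.86% of all genes, and 0 were higher, against 0.292%. Rel stood at 134 CPM in isotype control DETCs and 103 CPM in Skint1 antibody DETCs, a log2 ratio of -0.38 (-0.47 to -0.29), and its share of thinned DETCs with a UMI was 21.0% (19.7 to 22.4) and 15.8% (14.8 to 16.9). With no upper limit on genes per cell the ratio was -0.31, short of the limit, and with DETCs thinned to 2000 UMIs both Rel (-0.49) and Nfkb1 (-0.37) were past it.

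Nfkb1 had a ratio of -0.25 (-0.33 to -0.17), Tnfaip3 -0.20 (-0.26 to -0.14) and Nfkbid -0.19 (-0.31 to -0.07). Relb and Ier3 lay on the other side, at 0.19 (0.07 to 0.31) and 0.20 (0.14 to 0.26). Nfkbia, Nfkbiz and Nfkb2 were at -0.05, -0.04 and -0.03, near the median gene at -0.03. With at most 5% mitochondrial UMIs Ier3 was at 0.018, Nfkbiz at -0.30 and Nfkbia at -0.19.

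Within immediate early bins Rel had ratios of -0.27 (-0.60 to 0.06), -0.41 (-0.63 to -0.19) and -0.57 (-0.76 to -0.37) from low to high. Nfkb1 had -0.42, -0.36 and -0.31, and Ier3 had 0.28, 0.21 and 0.34, with every interval on 1 side of 0. Relb had 0.14 (-0.14 to 0.43), 0.03 (-0.27 to 0.34) and 0.36 (0.04 to 0.68). Nfkbia had -0.30 (-0.42 to -0.17) in the low bin and 0.14 (0.08 to 0.20) in the high bin. Nfkbid had -0.47 (-0.88 to -0.07), -0.28 and -0.05 from low to high. In the low bin 0 of 8 members were higher, against 2.79% of all genes, and 2 lower, against 9.75%. In the middle bin these were 0 and 2 of 8, against 5.89% and 8.35%. In the high bin they were 2 and 1 of 9, against 5.36% and 8.7%. Heat shock genes summed to 9196 CPM in isotype control DETCs and 7162 CPM in Skint1 antibody DETCs, a ratio of -0.36 (-0.37 to -0.35), and the immediate early list to 7958 and 7751 CPM. Without DETCs of many heat shock UMIs Rel was the 1 member lower as well, and the part of these genes was not tested further.

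Other pathway genes gave few differences between the libraries. Tnfrsf9 was lower in Skint1 antibody DETCs, at 63.5 against 125 CPM, a ratio of -0.97 (-1.08 to -0.87), and was 1 of 10 in its list. Of the 11 textbook targets above the floor Csf2 was lower, at 17.7 against 23.7 CPM. In the antigen receptor arm all 7 genes had ratios below 0 but 0 reached the limit, with a list median of -0.08 beside -0.03 for all genes and Malt1 at -0.18 (-0.24 to -0.12). The core and kinase genes and the ubiquitin genes had 0 genes past it, with medians of -0.02 and 0.00.

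In the smaller classes the same comparison had wide intervals. Of 9 members in αβ T cells, Relb and Ier3 were higher by 0.32 or more, against 13.4% of all genes, and Nfkbiz and Nfkb2 lower, against 22.5%. Ier3 had a ratio of 0.91 (0.48 to 1.34), Relb 0.63 (0.12 to 1.14) and Nfkbiz -0.62 (-1.09 to -0.16). In the 179 and 169 αβ T cells with at most 2 Trdc UMIs, an alternative added after seeing the data, Ier3 stood at 60.6 and 60.7 CPM, with an interval of the ratio from -0.66 to 0.66. There Relb had 0.64 (0.11 to 1.19) and Nfkbiz -0.47 (-0.96 to 0.01). The immediate early list was also higher in all Skint1 antibody αβ T cells, at 5324 against 4100 CPM, and its part was not tested. In the αβ T cells with at most 2 Trdc UMIs that list stood at 4112 against 3612 CPM, a ratio of 0.19 (0.11 to 0.27). In CD3-low cells 4 of 9 were higher, against 17.2% of all genes, and 2 lower, against 31%. The immediate early list was higher as well, at 3545 against 2366 CPM, a ratio of 0.58 (0.47 to 0.70), and its part was not tested. Of these members only Nfkbid, at 57.6 against 26.1 CPM and a ratio of 1.14 (0.11 to 2.31), had an interval on 1 side of 0, from 38 and 10 UMIs. In the 61 and 103 CD3-low cells with under 5 keratin UMIs, under 5 myeloid UMIs and no Trac UMI, whose keratin list stood at 22.2 and 31.0 CPM, Nfkbid stood at 29.6 and 53.2 CPM on 8 and 24 UMIs, a ratio of 0.85 (-0.36 to 2.21). In those cells Nfkbiz had 1.53 (0.24 to 3.09), Rel 0.85 (0.11 to 1.63) and Nfkb1 -0.47 (-0.92 to -0.02), and the immediate early list 0.14 (-0.03 to 0.30).

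**Figure D5:**
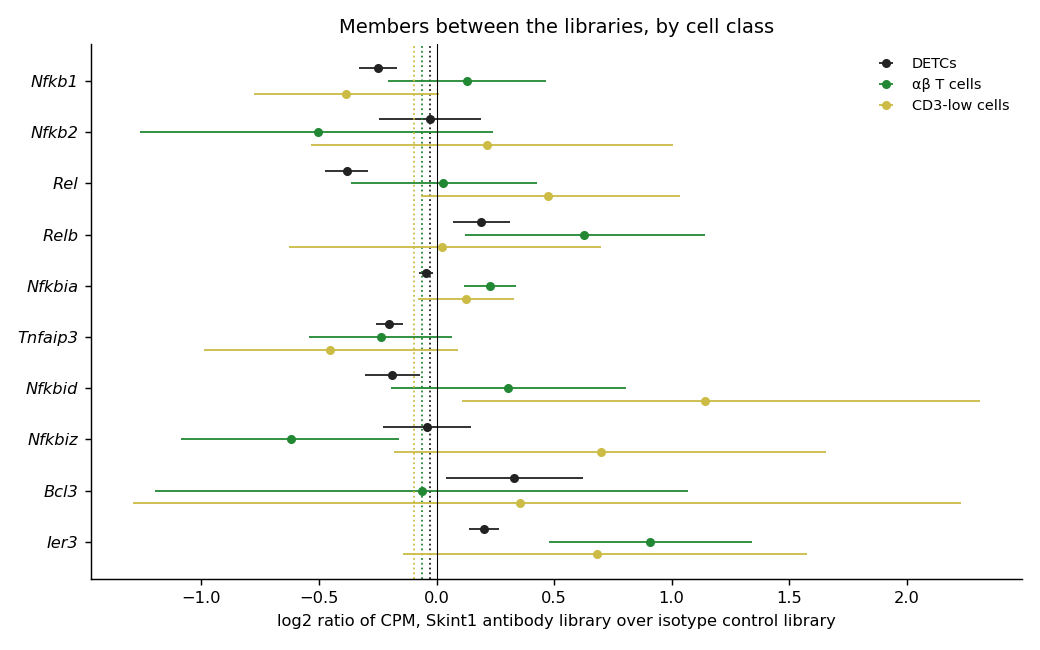
Log2 ratio of CPM of each member in the Skint1 antibody library over the isotype control library, in DETCs, αβ T cells and CD3-low cells; bars are exact conditional binomial 95% intervals and dotted lines are the medians over all genes. In DETCs Rel lies furthest left, at -0.38, and the intervals of Nfkbia are on opposite sides of 0 in DETCs and αβ T cells.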

How the data were processed

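The authors deposited 1 matrix per library of UMI counts per gene and barcode, made with Cell Ranger (3.0.2 in the matrix header) on GRCm38, named mm10 in the submitters' processing notes, with all barcodes kept and no normalization. The droplet chemistry counts the 3′ ends of transcripts. Cells were filtered as given above and classed by marker UMIs, and the UMIs of each class were summed. Scrublet scores (scanpy 1.11.5) marked 1 and 0 doublets at their own threshold, which was taken as a failure, so the 177 and 330 highest scores were left out only as an alternative. Intervals came from scipy 1.17.1, with numpy 2.4.6 and pandas 2.3.3 under Python 3.11.15, and plots from matplotlib 3.10.9. The ratio and interval code was tested on simulated data.

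With 1 library per treatment no test was made. Named genes were all 10 members, the list genes past the fold limits and the 5 genes most like the summed members. Within a library, a list gene had to pass the limit in both libraries. Between the libraries there was 1 ratio per gene, and Malt1 was also named though short of the limit. The members, the pathway lists and the immediate early and heat shock lists were chosen with earlier results of these data known, so counts over them are descriptions. A list is described by its counts and median beside those of all genes. Alternatives changed the mitochondrial, gene and doublet limits, the scaling, the weight and depth of cells, the richest cells and the class rules. The αβ T rule with at most 2 Trdc UMIs, the CD3-low rule with under 5 keratin UMIs, under 5 myeloid UMIs and no Trac UMI, both also between libraries, the free RNA subtraction and the split within immediate early bins were added after seeing the data. Protein sequences of the members were not analysed here.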

Additional observations from a re-analysis of the deposited data

Results flagged for a closer look

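In 2 members the libraries differed one way in DETCs and the other way in another class, and with 1 library per treatment the difference between classes was not tested. Nfkbia had a log2 ratio of Skint1 antibody over isotype control of -0.05 (-0.07 to -0.02) in DETCs and 0.23 (0.12 to 0.34) in αβ T cells, a difference of 0.27. The DETC value lay near the median gene and was -0.018 when centred on it and 0.0076 in cells thinned to 2000 UMIs, where the opposite sign was lost. With at most 5% mitochondrial UMIs it was -0.19, and in αβ T cells with at most 2 Trdc UMIs the ratio was 0.17 (0.05 to 0.30). The immediate early list went from 4100 to 5324 CPM in all αβ T cells and from 7958 to 7751 CPM in DETCs. In the αβ T cells with at most 2 Trdc UMIs it went from 3612 to 4112 CPM. In DETCs of the high immediate early bin the Nfkbia ratio was 0.14 (0.08 to 0.20). Nfkbid had a ratio of -0.19 (-0.31 to -0.07) in DETCs and 1.14 (0.11 to 2.31) in CD3-low cells, a difference of 1.33. It rests on 10 and 38 UMIs in CD3-low cells, and in those with under 5 keratin UMIs, under 5 myeloid UMIs and no Trac UMI the ratio was 0.85 (-0.36 to 2.21) on 8 and 24 UMIs. In those same cells Rel had 0.85 (0.11 to 1.63), on 21 and 63 UMIs, against -0.38 (-0.47 to -0.29) in DETCs, a pair of opposite signs that the whole class did not show with an interval clear of 0.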

How the results depend on the processing

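Over the immediate early bins 7 members were higher and 0 lower under all 5 alternatives. Between the libraries, 1 DETC member was lower and 0 were higher under the alternatives, which were run without the split into immediate early bins. The exceptions were 0 lower with no upper limit on genes and 2 lower in cells thinned to 2000 UMIs. Against αβ T cells, 0 members in place of 1 were higher with at most 5% mitochondrial UMIs, when centred on the median gene, with a total without mitochondrial and ribosomal protein UMIs, and without cells of both rules, and 2 were higher without the 10 richest cells. The number lower was 1 in place of 2 with at most 5% mitochondrial UMIs, without the highest doublet scores, without the 10 richest cells and without cells of both rules. Against CD3-low cells, the number higher was 1 with at most 5% mitochondrial UMIs, 6 with no upper limit on genes, 4 without the 10 richest cells and 3 in the class with under 5 keratin UMIs, under 5 myeloid UMIs and no Trac UMI, in place of 2. The number lower was 2 when centred, 3 with a total without mitochondrial and ribosomal protein UMIs, 2 with every cell weighing the same, 0 without the 10 richest cells and 2 in that reduced class, in place of 1. The share of all genes past the limits was counted under 1 alternative only, that reduced class, at 19.1% higher and 9.9% lower. Member counts under the others thus have no share beside them and are no result about the members. With no upper limit on genes, CD3-low cells numbered 134 and 220 in place of 82 and 139. Leaving out 10 cells takes a larger share of the smaller class. The other causes were not tested.

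A value past its fold limit changed sign in 5 cases. Bcl3 between the libraries in DETCs was -0.031 with at most 5% mitochondrial UMIs, where Ier3 in DETCs over CD3-low cells was -0.48 in the Skint1 antibody library. Nfkb1 in DETCs over CD3-low cells was 0.82 in the isotype control library with no upper limit on genes. In that library Bcl3 in DETCs over αβ T cells was 1.84 without the 10 richest cells, and Bcl3 over the immediate early bins was 0.44 in cells thinned to 1500 UMIs. Of 110 single-gene values under alternatives for DETCs between the libraries, 100 kept their sign. Of the values against αβ T cells, 96 of 110 did in the isotype control library and 106 of 110 in the other. Against CD3-low cells 87 of 96 and 86 of 100 did, and over the immediate early bins 47 of 50 and 45 of 50.

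No paired analysis was possible because each treatment had 1 library and the labels give no replicate numbers. Depth limits Bcl3, Nfkb2 and Nfkbiz most, and any member in αβ T and CD3-low cells. With 1 library per group, the spread between animals was not measured.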
